A study of Mus musculus with 20 samples.

Results

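The genes described are 10 germ-line genes of the mouse, namely Sycp1, Hormad1, Stag3, Stk31, Dazl, Piwil2, Mael, Asz1, Tex19.1 and Morc1, which act in meiosis or in the silencing of transposons. They were read by 13 probe sets whose platform annotation names 1 of these genes, out of 45101 probe sets and 18193 genes on the array. They were chosen by their measured level in epiblast-like cells (EpiLCs), cultured cells that resemble the epiblast soon after implantation, and with their lower level in aggregates known. Their level in EpiLCs and their change from EpiLCs to aggregates are therefore given as description without a test.

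RNA was measured on 20 microarrays, 2 for each of 10 groups, made from male mouse embryonic stem cells of the mixed strain C57BL/6;129. All 5 lines derive from the parental clone BVSCR26rtTA, which carries the reporters Blimp1-mVenus and stella-ECFP and the doxycycline-dependent activator Rosa26-rtTA. The lines named B, P14 and A add a tetO-driven piggyBac transgene for Avi-Blimp1, 3xFLAG-Prdm14 or V5-Tfap2c respectively, and the line BP14A carries all 3 transgenes. Each group was taken either as EpiLCs after 36 h of differentiation, before doxycycline, or as aggregates after a further 24 h with 1.5 µg/ml doxycycline, called day 1 here; parental aggregates received doxycycline too. Each line is 1 clone, and so the effect of a transgene and that of its clone cannot be told apart. Aggregates kept without doxycycline were not analysed here. Nothing in the labels says how the 2 biological duplicates of a group were separated, so p-values measure the spread between these samples.

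In germ cells, meiotic chromosomes fold along a protein axis of cohesin and HORMA-domain proteins, and the synaptonemal complex then zips homologous chromosomes together. Transposons are held silent by small RNAs bound to PIWI proteins (piRNAs), which guide RNA cleavage and DNA methylation, and by chromatin proteins of the MORC family. Many genes of both systems have CpG-rich promoters that are kept silent in somatic cells by DNA methylation and by a Polycomb complex that holds the DNA-binding proteins E2F6, MGA and MAX. E2F proteins bind the hexamer TCCCGC and related letters, and MAX-containing dimers bind the E box CACGTG.

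Promoters are shown because all 10 genes were lower in aggregates than in EpiLCs in the parental line, and many genes of these systems are known to be silenced at the promoter. Whether these 10 genes are silenced in this way was not tested. RefSeq windows (GRCm38.p6) running from 250 bases before to 50 bases after the annotated start were matched for 8 of the 10 genes, and none was printed for Piwil2 and Morc1. Hormad1 and Stk31 had 2 windows each, of which only the first was used. For Stag3 the start used lies inside the annotated gene, which begins at 138272514. The 4 windows with at least 2 hexamer matches are given below, 5′ to 3′ on the strand of the gene. They are printed without the 50 bases past the start, with whole matches to TCCCGC or CACGTG on either strand in capitals. They lie at chr3:95559427-95559676 on the plus strand for Hormad1, chr1:166238745-166238994 on the minus strand for Mael, chr5:138280259-138280508 on the plus strand for Stag3 and chr3:102936101-102936350 on the minus strand for Sycp1.
Hormad1: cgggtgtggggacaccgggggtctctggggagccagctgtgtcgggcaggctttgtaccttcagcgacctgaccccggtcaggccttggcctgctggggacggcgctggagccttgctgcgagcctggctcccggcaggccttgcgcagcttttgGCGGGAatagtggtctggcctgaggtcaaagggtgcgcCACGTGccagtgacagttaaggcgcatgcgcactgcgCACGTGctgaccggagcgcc
Mael: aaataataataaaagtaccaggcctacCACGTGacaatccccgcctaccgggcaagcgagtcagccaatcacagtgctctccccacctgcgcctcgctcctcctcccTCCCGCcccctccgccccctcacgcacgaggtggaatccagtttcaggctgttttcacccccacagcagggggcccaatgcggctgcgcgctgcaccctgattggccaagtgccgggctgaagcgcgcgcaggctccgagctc
Stag3: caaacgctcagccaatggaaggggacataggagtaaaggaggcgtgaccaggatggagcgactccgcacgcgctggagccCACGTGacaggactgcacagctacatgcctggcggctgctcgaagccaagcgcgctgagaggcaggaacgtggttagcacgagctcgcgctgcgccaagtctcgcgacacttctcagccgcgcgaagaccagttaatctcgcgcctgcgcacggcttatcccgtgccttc
Sycp1: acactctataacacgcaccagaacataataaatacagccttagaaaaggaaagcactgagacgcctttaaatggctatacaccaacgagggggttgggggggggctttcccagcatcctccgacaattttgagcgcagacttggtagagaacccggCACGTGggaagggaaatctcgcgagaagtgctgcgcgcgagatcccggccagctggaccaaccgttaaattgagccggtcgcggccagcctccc

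The E box was present in 5 of the 8 windows (Hormad1, Mael, Stag3, Stk31 and Sycp1), and 7.2% of all 27025 windows held it. In Hormad1 it occurred at 2 places, 57 and 20 bases before the start as counted to the first letter of the match (positions -57 and -20). The E2F-type hexamer was present in 5 windows (Hormad1, Mael, Stag3, Sycp1 and Tex19.1), against 20% of all windows, and 4 windows held both hexamers, against 2% of all windows and 5.2% of the 9059 windows with at least 16 CG. In Sycp1 and Mael 1 E2F-type match lay past the start, and in Stag3 it crossed the start, so these are not marked in the printed letters. The 8 windows held between 16 and 30 CG dinucleotides, with a median of 24 against 7 over all windows. CG content bears on this comparison, since among the 9059 windows with at least 16 CG the E box was found in 11.6% and the E2F-type hexamer in 46%. Neither hexamer was found in the windows of Dazl and Asz1. These matches describe letters in a window, not binding.

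**Figure D1:**
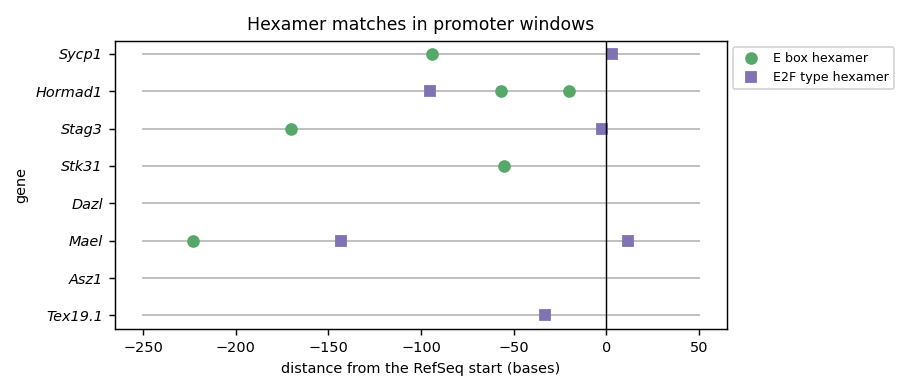
Each grey line is the 300-base promoter window of 1 gene, with distance from the RefSeq start in bases on the horizontal axis; circles mark E box matches and squares E2F-type matches, at their first base. Matches lie in 6 of the 8 windows, and Dazl and Asz1 have none.

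EpiLC markers were present in the EpiLCs, but a level above the filter does not by itself identify a cell type. The 8 naive stem cell markers described below also passed it in every EpiLC group. The 8 epiblast-like cell markers (Fgf5, Pou3f1, Dnmt3b, Otx2, Sox3, Pou5f1, Zic2 and Fgf15) all had means above the filter level in every group, and their summed level on the log2 scale lay between 14.53 and 14.69 in EpiLCs. On day 1 that sum was 14.49 to 14.56 in parental cells, 14.49 to 14.55 in A, 14.07 to 14.14 in B, 13.52 to 13.59 in P14 and 13.08 to 13.14 in BP14A. Against parental aggregates 6 of the 8 markers were called lower in BP14A, 3 in P14, 2 in B and 0 in A. Feeder fibroblast markers had a summed level of 7.51 to 9.05 over all groups, and 2 to 4 of the 8 lay below the filter level in each group. Of the 6 tested, Thy1 was lower than parental on day 1 in BP14A (-3.04) and P14 (-2.62), Dcn in BP14A (-1.06) and Fbln2, which was dim, in P14 (-1.53), and none was called in B or A. The part of either marker list in the levels of the 10 genes was not tested. With 2 arrays in each group, precision is limited by their number. The difference between the 3′ and 5′ control probes of Gapdh, a sign of RNA integrity, lay between -0.18 and -0.11 on all 20 arrays. That of Actb lay between 0.31 and 0.5, with its highest value in P14 aggregates.

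All 10 genes were lower on day 1 than in EpiLCs in the parental line, and their median fall was smaller in the P14 and BP14A lines. In BP14A, Mael was lower by as much as in parental cells (-1.35 against -1.30), and Stk31 (0.04) and Asz1 (0.10) were not lower. Levels here are log2 values as deposited, and a mean below 3.95, the 40th percentile of all values, counts as dim. In parental cells each of the 10 genes was lower by at least 1 on the log2 scale at its brightest probe set. The median change was -1.48, and 3.17% of the 14011 tested genes were lower by at least 1. In the A line 8 of the 10 genes were lower by at least 1 (2.98% of all genes) and in the B line 7 (4.3%). In BP14A it was 4 genes (5.26%) and in P14 3 genes (4.13%). Hormad1 and Morc1 were lower by at least 1 in all 5 lines, as were 0.921% of all genes. Nothing is read from these counts, since the genes were chosen with the parental change known. The medians over the 10 genes were -1.72 in A, -1.40 in B, -0.72 in P14 and -0.70 in BP14A; without replicate 2 of the B aggregates the median in B was -1.71. For 6 genes (Sycp1, Mael, Hormad1, Stag3, Tex19.1 and Morc1) all 10 day 1 arrays lay below all 10 EpiLC arrays, which held for 6.99% of all tested genes. In these bulk samples, fewer cells with a transcript and less of it per cell cannot be told apart.

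**Figure D2:**
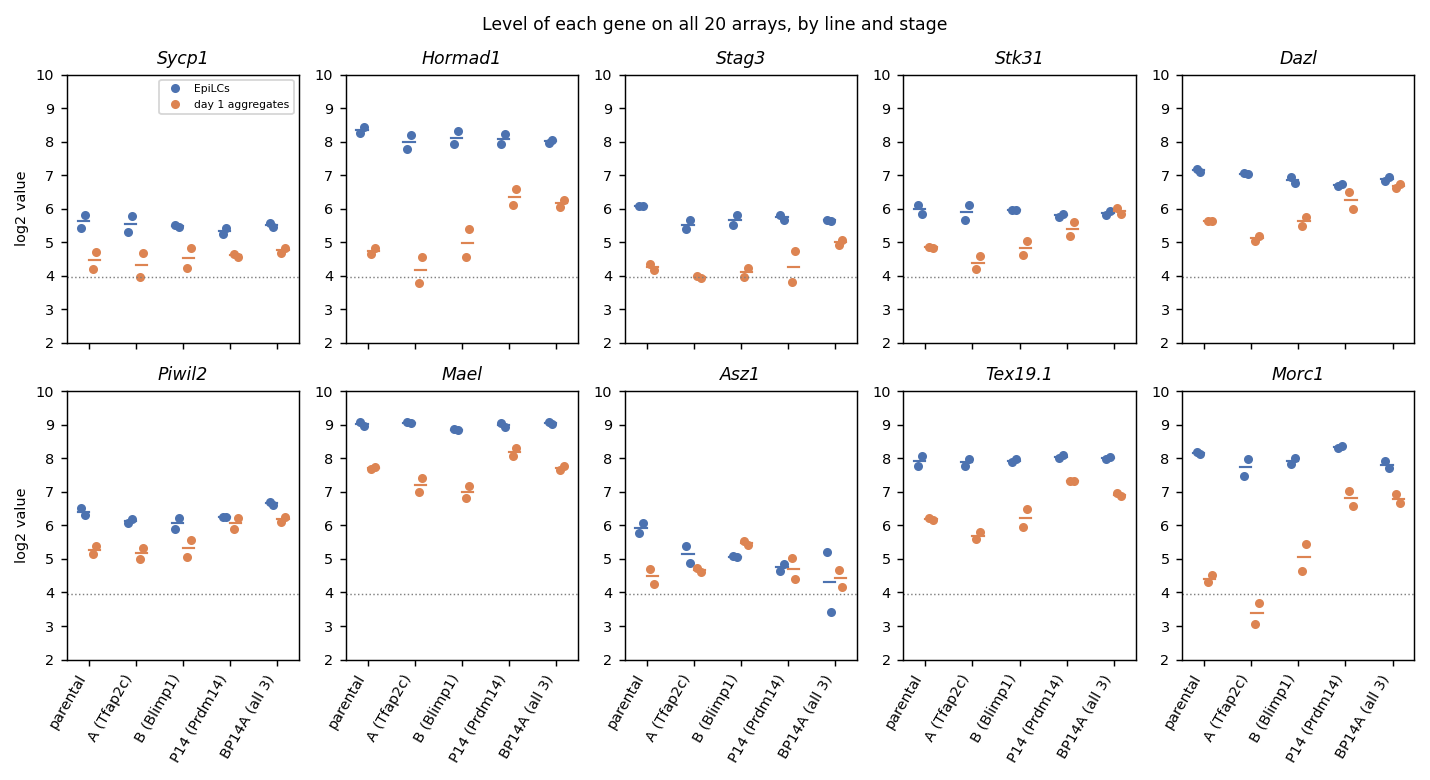
Each panel gives the log2 value of 1 gene at its main probe set on all 20 arrays, with the 5 lines on the horizontal axis, points for single arrays and short bars for the mean of 2 arrays; the dotted line is the filter level of 3.95. Day 1 aggregates lie below EpiLCs in most panels. The P14 and BP14A aggregates lie above the parental ones for Hormad1, Stk31, Dazl, Piwil2, Tex19.1 and Morc1.

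**Figure D3:**
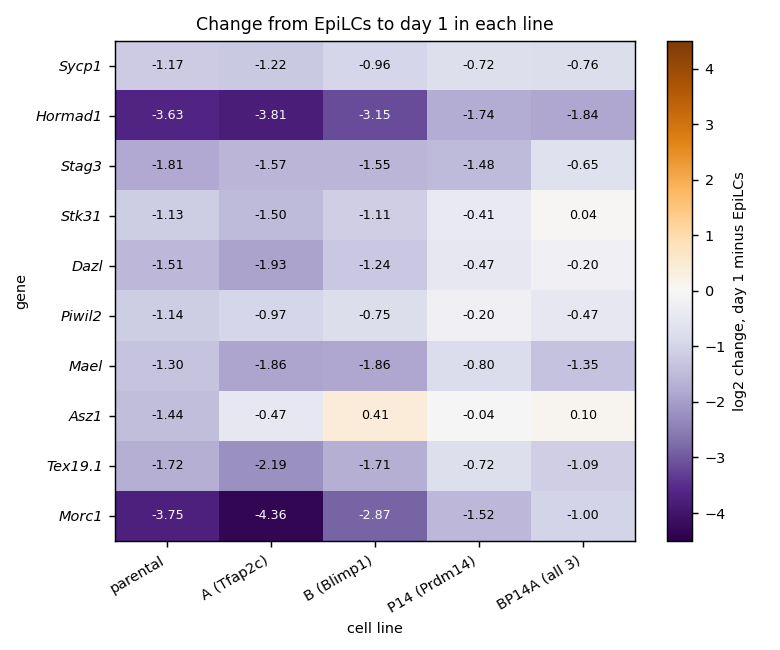
The cells of this map give the log2 change from EpiLCs to day 1 for each gene (rows) in each line (columns), as a difference of group means of 2 arrays. Changes run from -4.36 for Morc1 in the A line to 0.41 for Asz1 in the B line.

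Differences between lines were tested within each stage. The genes were chosen with their EpiLC level and their low level in parental aggregates known, and the parental arrays are the reference of every comparison with the parental line, so these counts and p-values are not independent of the choice. To be called, a gene needed a log2 difference of at least 1 in size and a limma p under 0.05 after Benjamini-Hochberg adjustment over all 14011 tested genes. Before doxycycline 0 of the 10 genes was called in any of the 4 lines against parental EpiLCs. At an unadjusted p under 0.05 there was 1 gene in BP14A (7.47% of all genes), 0 in B (10.8%), 2 in P14 (5.85%) and 1 in A (7.7%). Of all genes, 0.00714% were called higher and 0.00714% lower in BP14A, 0.0214% and 0.0571% in B, 0% and 0.0357% in P14, and 0.00714% and 0.0214% in A. The EpiLC group means of a gene spanned 0.17 (Tex19.1) to 0.61 (Morc1) over the 5 lines for 9 of the genes, and 1.60 for Asz1.

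On day 1 the BP14A line stood above the parental line at 4 of the 10 genes, Morc1, Hormad1, Stk31 and Dazl, and 2.78% of all tested genes were called higher. The P14 line stood above it at 3, Morc1, Hormad1 and Tex19.1, against 2.18% of all genes. No gene was lower in either line, where 3.85% and 3.2% of all genes were called lower. At an unadjusted p under 0.05 there were 7 of the 10 in each line, against 36.7% and 34.2% of all genes. In the B line 0 of the 10 was called (1.4% of all genes higher, 1.2% lower), with 3 at an unadjusted p under 0.05 against 30% of all genes. In the A line 0 was called (0% higher, 0.0285% lower), with 5 at an unadjusted p under 0.05, all of them lower than parental, against 6.62% of all genes. Tfap2c itself read -0.395 ± 0.13 in A against parental aggregates (limma adjusted p = 0.582), so these arrays do not show it raised there. Whether its probe set reads the transgene was not tested. The medians of the 10 differences were 0.82 in BP14A, 0.57 in P14, 0.03 in B and -0.48 in A, where the medians of all genes lay between -0.03 and 0.03.

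**Figure D4:**
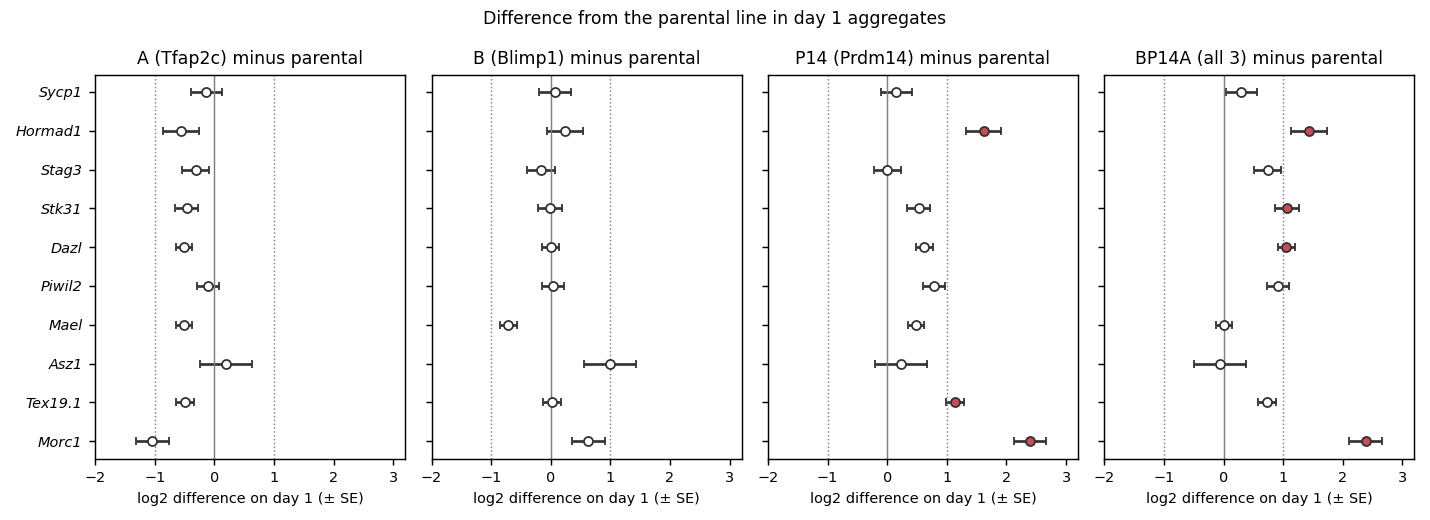
Each panel gives the log2 difference on day 1 between 1 transgene line and the parental line for the 10 genes, with bars of 1 limma standard error; filled points passed the test and dotted lines mark a difference of 1. Filled points are Hormad1, Tex19.1 and Morc1 in P14, and Hormad1, Stk31, Dazl and Morc1 in BP14A.

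The meiotic chromosome genes are Sycp1, Hormad1 and Stag3. Hormad1 encodes a HORMA-domain protein of the unsynapsed chromosome axis. It read 7.78 to 8.45 over the 10 EpiLC arrays. On day 1 it read 4.64 and 4.82 in parental cells, 3.78 and 4.56 in A, 4.55 and 5.40 in B, 6.10 and 6.59 in P14, and 6.06 and 6.26 in BP14A. The P14 and BP14A arrays lay above all arrays of the other 3 lines and below all EpiLC arrays. Hormad1 was higher than in parental aggregates by 1.61 ± 0.30 (limma SE, adjusted p = 0.00188) in P14 and by 1.43 ± 0.30 (adjusted p = 0.00344) in BP14A. The call in BP14A ended under a limma test against a change of 0.5 (adjusted p = 0.0702). The differences in B (0.25 ± 0.30) and A (-0.56 ± 0.30) did not pass.

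Stag3, a cohesin subunit made for meiosis, read 5.38 to 6.08 in EpiLCs. Its day 1 values were 4.36 and 4.17 in parental cells, 4.93 and 5.08 in BP14A, and 3.80 and 4.73 in P14, where the arrays lay on either side of the parental ones. The difference of BP14A from parental was 0.74 ± 0.23 (limma adjusted p = 0.0307), under the limit of 1, and that of P14 was 0 ± 0.23. Sycp1 encodes the transverse filament of the synaptonemal complex. It read 5.24 to 5.81 in EpiLCs and 3.95 to 4.84 on day 1. Its differences from parental on day 1, from -0.14 to 0.30 with a SE of 0.27, did not pass the test.

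Dazl and Stk31 follow. Dazl encodes an RNA-binding protein that licenses germ cells for gametogenesis. At its brighter probe set it read 6.69 to 7.19 in EpiLCs. The aggregates read 5.62 and 5.63 in parental cells, 5.04 and 5.19 in A, 5.49 and 5.76 in B, 6.50 and 5.99 in P14, and 6.62 and 6.74 in BP14A. The higher BP14A array lay within the EpiLC range and the lower one just under it, and the A arrays were the lowest. Dazl was higher in BP14A than in parental aggregates by 1.05 ± 0.14 (adjusted p = 0.000121), and in P14 by 0.62 ± 0.14 (adjusted p = 0.00671), under the limit of 1. The other Dazl probe set gave 0.89 ± 0.27 in BP14A and 0.77 ± 0.27 in P14, and the BP14A call ended when both were averaged (0.97) and without replicate 2 of the BP14A aggregates (0.995).

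Stk31 encodes a kinase-like protein with a Tudor domain, found in germ cells. Its main probe set carries the maker's mark for probes that may bind other transcripts. It read 5.67 to 6.12 in EpiLCs. On day 1 it read 4.87 and 4.84 in parental cells, 4.19 and 4.59 in A, 4.63 and 5.05 in B, 5.17 and 5.60 in P14, and 6.01 and 5.83 in BP14A. Both BP14A arrays lay within the EpiLC range, and the arrays of the other lines lay below it. The difference of BP14A from parental was 1.06 ± 0.19 (limma adjusted p = 0.00132) and that of P14 0.53 ± 0.19 (adjusted p = 0.0703). The other probe set gave 0.81 ± 0.23 in BP14A; the call ended when both were averaged (0.94), without replicate 1 of the BP14A aggregates (0.975) and under a test against a change of 0.5 (adjusted p = 0.0923).

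The piRNA genes were Piwil2, Mael and Asz1. Piwil2 encodes MILI, a PIWI protein that binds piRNAs. It read 5.90 to 6.70 in EpiLCs. Its day 1 values were 5.16 and 5.39 in parental cells, 4.99 and 5.34 in A, 5.07 and 5.56 in B, 5.89 and 6.23 in P14, and 6.11 and 6.26 in BP14A. The P14 and BP14A arrays lay above those of the other 3 lines. The differences from parental, 0.91 ± 0.18 in BP14A (limma adjusted p = 0.00242) and 0.79 ± 0.18 in P14 (adjusted p = 0.00739), were under the limit of 1; without replicate 2 of the parental aggregates the one in BP14A was called, at 1.02 (adjusted p = 0.00744).

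Mael encodes Maelstrom, a germ-granule protein needed for transposon silencing. It read 8.85 to 9.08 in EpiLCs. The aggregates read 7.68 and 7.74 in parental cells, 7.00 and 7.40 in A, 6.83 and 7.17 in B, 8.08 and 8.32 in P14, and 7.64 and 7.78 in BP14A. The difference of BP14A from parental was 0 ± 0.13, with a 95% interval of -0.29 to 0.29. The differences of 0.49 ± 0.13 in P14 (limma adjusted p = 0.0193) and -0.71 ± 0.13 in B (adjusted p = 0.00365) were under the limit of 1.

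Asz1 encodes a protein of the mitochondria-linked granule in which piRNAs are made. At its brighter probe set it read 5.78 and 6.06 in parental EpiLCs, 5.21 and 3.42 in BP14A EpiLCs, and 4.65 to 5.40 in the EpiLCs of the other 3 lines. On day 1 it read 4.17 to 5.54, and no day 1 difference passed the test. The difference between BP14A and parental EpiLCs, -1.60 ± 0.44, did not pass (limma adjusted p = 0.443), and without BP14A EpiLC replicate 1 it was -2.50 (adjusted p = 0.0263). Its other probe set lay near the filter level in all groups, between 2.54 and 4.54. From EpiLCs to day 1 in parental cells that probe set changed by -0.17, against -1.44 at the brighter one.

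Tex19.1 and Morc1 silence transposons by other routes. Tex19.1, a protein of mammals that restrains retrotransposons in germ cells and placenta, read 7.76 to 8.09 in EpiLCs. Its day 1 values were 6.22 and 6.17 in parental cells, 5.60 and 5.79 in A, 5.94 and 6.49 in B, 7.34 and 7.32 in P14, and 6.96 and 6.88 in BP14A. The lines separated in the order P14, BP14A, then parental and B together, then A. Tex19.1 was higher than parental by 1.14 ± 0.15 in P14 (limma adjusted p = 0.000161) and by 0.73 ± 0.15 in BP14A (adjusted p = 0.00328), the latter under the limit of 1.

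Morc1 encodes a nuclear ATPase of the MORC family that represses transposons in male germ cells. It read 7.48 to 8.36 in EpiLCs. The aggregates read 4.30 and 4.53 in parental cells, 3.07 and 3.68 in A, 4.63 and 5.46 in B, 7.04 and 6.58 in P14, and 6.94 and 6.66 in BP14A. The P14 and BP14A arrays overlapped each other, lay above the other 3 lines and lay below all EpiLC arrays. Morc1 was higher than parental by 2.40 ± 0.27 in P14 (limma adjusted p = 4.65e-05) and by 2.38 ± 0.27 in BP14A (adjusted p = 3.74e-05). In A the difference of -1.04 ± 0.27 did not pass (adjusted p = 0.401), and the mean there lay below the filter level, so its size is approximate. In B the difference was 0.63 ± 0.27 (adjusted p = 0.146), and without replicate 1 of the B aggregates it was 1.04 (adjusted p = 0.0343).

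A lower level in parental aggregates was known when the genes were chosen, and every comparison above shares the 2 parental day 1 arrays. The A line, in which 4 of 14011 genes were called against parental on day 1, gave a comparison without those arrays; it was added after the data were seen. A was itself the lowest line on day 1 for 8 of the 10 genes, and 5 of them were nominally lower there than in parental cells, so the counts against A are larger for that reason too and are given as description. Against A, 7 of the 10 genes were called higher in BP14A, against 3.25% of all genes (3.77% lower), and 5 in P14, against 2.65% (3.2% lower). Morc1 was higher by 3.43 ± 0.27 in BP14A and 3.44 ± 0.27 in P14, sizes that are approximate because its mean in A lay below the filter level. Hormad1 was higher by 1.99 ± 0.30 and 2.17 ± 0.30, Dazl by 1.56 ± 0.14 and 1.13 ± 0.14, and Tex19.1 by 1.23 ± 0.15 and 1.64 ± 0.15. Stk31, Stag3 and Piwil2 were called in BP14A only of these comparisons (1.53, 1.05 and 1.02), and Mael in P14 (1.00, at the limit). The calls of Stag3 (0.99) and Piwil2 (0.95) in BP14A and of Mael (0.93) in P14 ended when arrays were centred on their medians. Without replicate 2 of the BP14A aggregates Stag3 and Piwil2 were not called (0.98 and 0.94), nor was Piwil2 without replicate 1 of A (0.84). Mael was not called in P14 without replicate 2 of P14 (0.88) or replicate 1 of A (0.80), nor Dazl without replicate 1 of P14 (0.88); without replicate 1 of P14 or replicate 2 of A, Stk31 and Piwil2 were called there as well. With only the 4 arrays of P14 and A in the fit, 3 genes were called.

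The lowest place of A held for 21.0% of all genes, and BP14A or P14 was the highest for 5 and 4 genes, which held for 22.6% and 14.8%. Between BP14A and P14 themselves, 0 of the 10 genes was called (0.492% of all genes higher in BP14A, 0.557% lower), with 5 at an unadjusted p under 0.05, as were 2673 of the 14011 genes. For Morc1 the difference BP14A minus P14 was -0.01 with a 95% interval of -0.61 to 0.59, and for Hormad1 it was -0.18 (-0.84 to 0.47). Dazl (0.44), Stk31 (0.54) and Stag3 (0.74) were nominally higher in BP14A, and Mael (-0.49) and Tex19.1 (-0.41) in P14, with limma adjusted p from 0.054 to 0.154. Without replicate 2 of the P14 aggregates Stag3 was called, at 1.21 (adjusted p = 0.00309).

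The fall from EpiLCs to day 1 was compared between lines as an interaction of line and stage in limma. This contrast holds the EpiLC level and the parental fall, both known when the genes were chosen, so its calls are a description and nothing is read from their counts. In BP14A 5 of the 10 genes were called higher in this contrast, against 3.02% of all genes (3.93% lower), and 3 were in P14, against 1.94% (2.61% lower). For these genes the fall was smaller than in the parental line or, for Stk31 in BP14A, absent. At an unadjusted p under 0.05 there were 8 in each, against 30.5% and 23.9% of all genes. In B and A 0 was called (1.33% and 0% of all genes higher, 1.06% and 0% lower), with 3 and 2 genes at an unadjusted p under 0.05 against 23.6% and 4.65%. Morc1 fell by 3.75 in parental cells, by 1.00 in BP14A and by 1.52 in P14 (differences 2.74 ± 0.39 and 2.22 ± 0.39). Hormad1 fell by 3.63, 1.84 and 1.74 (differences 1.78 ± 0.43 and 1.90 ± 0.43), and Dazl by 1.51, 0.20 and 0.47 (1.31 ± 0.20 and 1.05 ± 0.20). Stag3 (1.17 ± 0.32) and Stk31 (1.18 ± 0.27) were called in BP14A. The call of Stag3 ended without 1 of 6 arrays in turn, namely either EpiLC array of parental or BP14A cells, replicate 2 of the parental aggregates or replicate 2 of the BP14A aggregates. In P14, Dazl was not called without replicate 1 of the P14 aggregates (0.80), and Hormad1 without replicate 1 of the P14 EpiLCs or replicate 2 of the P14 aggregates. Tex19.1, at 0.99 ± 0.21, and Piwil2, at 0.94 ± 0.26, lay just under the limit in P14 and passed without certain single arrays. Without BP14A EpiLC replicate 1 the difference of Asz1 in BP14A was 2.44, and it was called.

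Across the 10 group means, the 45 pairs of genes had a median Pearson r of 0.91 (0.01 to 0.99), as a description of points that share arrays and the change of stage. Asz1 was the exception, with 0.33 to its most like gene, Sycp1. Hormad1 and Tex19.1 were most like each other (0.99), as were Dazl and Stk31 (0.99). The other genes whose group means were most like the average of the 10 were Rnaseh2a (r = 0.988), Ube2o (0.987), Mageb16 (0.986), Gm2381 (0.984) and Tnnt1 (0.983). Their changes in parental cells were -0.46, -0.73, -2.71, -2.17 and -2.54.

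Other genes of the same pathways shared the direction only in part. Of 42 other meiosis genes listed, 35 were on the array and 29 passed the filter. From EpiLCs to day 1 in the parental line 8 of the 29 fell and 0 rose, where 2.62% of all genes fell and 3.97% rose, and the list's median was -0.38 against 0.05 over all genes. Prdm9 and Tex11, counted there, and Sycp2, counted in BP14A and A below, passed the filter through EpiLC groups alone. The filter therefore favoured their fall. Sohlh2, a transcription factor of early germ cells, fell by 2.67 ± 0.28 (limma adjusted p = 2.01e-05), and Rec114, which helps to place meiotic DNA breaks, by 2.64 ± 0.20 (adjusted p = 1.75e-06). Meioc, a partner of a meiotic RNA helicase, fell by 2.13 ± 0.17 and Tex14 by 1.81 ± 0.47. The counts of falling genes were 7 in BP14A (4.87% of all genes), 8 in B (3.94%), 4 in P14 (3.73%) and 7 in A (2.55%). In these lines 5.73%, 5.78%, 4.33% and 3.58% of all genes rose, and of the list 1 gene rose, Sycp3 in P14, by 1.06 ± 0.16. Against parental aggregates on day 1, 0 of the 29 was called in BP14A. Tex14 (1.79 ± 0.47, adjusted p = 0.0155) and Sohlh2 (1.39 ± 0.28, adjusted p = 0.00347) were higher in P14. Meioc, Sycp3 and Ccnb1ip1 were lower in B (-1.07, -1.03 and -1.03). Without replicate 1 of the B aggregates fewer pathway genes were called in B, 2 in place of 4 over all 3 lists.

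Of 22 other piRNA genes, 20 were on the array and 15 passed the filter. In the parental line 4 fell on aggregation, Tdrd12 by 3.07 ± 0.21 (limma adjusted p = 8.03e-07), Piwil4 by 2.02 ± 0.41, Gpat2 by 1.89 ± 0.20 and Tdrd9 by 1.42 ± 0.24, and Tdrd7 rose by 2.10 ± 0.23. The sizes for Piwil4, Tdrd9 and Tdrd7 are approximate, since 1 of the 2 group means lay below the filter level. Piwil4 passed the filter through EpiLC groups alone and Tdrd7 through aggregates alone, so the filter favoured the changes of both. Tdrd12, a Tudor-domain helicase of the piRNA pathway, stood at 9.37 in parental EpiLCs and fell by 2.74 to 3.50 in every line, so that on day 1 it was called in none of the 4 lines against parental. Gpat2, a mitochondrial acyltransferase needed for piRNAs, likewise fell in all 5 lines, by 1.54 to 2.24. Against parental aggregates Tdrd5, a Tudor protein of germ granules, was higher in BP14A by 1.56 ± 0.11 (adjusted p = 7.97e-07). Piwil4, which encodes the nuclear PIWI protein MIWI2, was higher by 1.86 ± 0.41 in BP14A and 1.78 ± 0.41 in P14, with means below the filter level in both, so its size is approximate. Tdrd9 was higher by 1.24 ± 0.24 in P14, again approximate against its dim parental mean.

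The last list holds genes whose products silence germ-line promoters, by DNA methylation or through chromatin. Of 23 listed, 22 were on the array and 21 passed the filter, and the list's median change in the parental line was -0.05. Dnmt3l, the cofactor of new DNA methylation, fell in all 5 lines, by 3.50 ± 0.27 in parental cells and by 2.65 to 3.59 in the others. The methyltransferase Dnmt3a was also called lower on day 1 than in EpiLCs in all 5 lines. Its changes were -1.215 in parental cells, -2.51 in BP14A, -3.2 in B, -1.055 in P14 and -1.23 in A. The methyltransferase Dnmt3b was lower than parental on day 1 in BP14A (-3.34 ± 0.10) and P14 (-2.07 ± 0.10; limma adjusted p = 9.03e-10 and 5.23e-08), the lines in which Morc1 and Hormad1 were higher, and did not pass in B or A. Dnmt3a was lower than parental on day 1 in BP14A (-1.27 ± 0.26) and B (-2.19 ± 0.26), and in B none of the 10 genes was called. Max rose from EpiLCs to day 1 in BP14A by 1.06 ± 0.10 and Atf7ip in B by 1.02 ± 0.12. Dnmt1, Uhrf1 and Hells, also of DNA methylation, were called in no comparison. The part of these genes in the levels of the 10 genes was not tested.

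Most naive stem cell markers stood above their parental level on day 1 in BP14A and P14, as several of the 10 genes did. Of 8 such markers, 6 were higher than parental on day 1 in BP14A and 7 in P14, 2 in B and 0 in A, and none was at 0 on both arrays of a group. Their summed level on the log2 scale was 9.43 to 9.47 in parental aggregates, 9.32 to 9.34 in A, 9.82 to 9.87 in B, 11.72 to 11.80 in P14 and 11.61 to 11.68 in BP14A. In EpiLCs, where the 10 genes were highest, it was 10.16 to 10.52. The mean of the 10 genes was 6.69 to 7.08 in EpiLCs, and on day 1 it was 5.18 to 5.22 in parental cells, 4.63 to 4.98 in A, 5.09 to 5.54 in B, 5.96 to 6.03 in P14 and 6.05 to 6.06 in BP14A. In P14 and BP14A aggregates the summed naive level thus stood above its EpiLC level, while the mean of the 10 genes stood below its own. By gene, all 8 naive markers were higher than in EpiLCs in BP14A and 7 were in P14. Of the 10 genes, 8 were lower than in EpiLCs in BP14A, where Stk31 and Asz1 were not, and all 10 were in P14. Of 6 early germ cell markers (Dppa3, Prdm1, Tfap2c, Dnd1, Kit and Ifitm3), 5 were higher than parental in each of BP14A, P14 and B and 0 in A. The summed level of the 6 was 13.28 to 13.34, 12.42 to 12.57, 11.19 to 11.59 and 9.21 to 9.43 in these lines, against 9.37 to 9.50 in parental aggregates. Prdm1, the gene of Blimp1, is also a transgene in B and BP14A, and Tfap2c in A and BP14A. The counts and sums may therefore in part read the transgenes, which was not tested. Of 4 markers of 2-cell-like cells, 3 lay below the filter level in every group. The part of these cell states in the result was not tested.

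**Figure D5:**
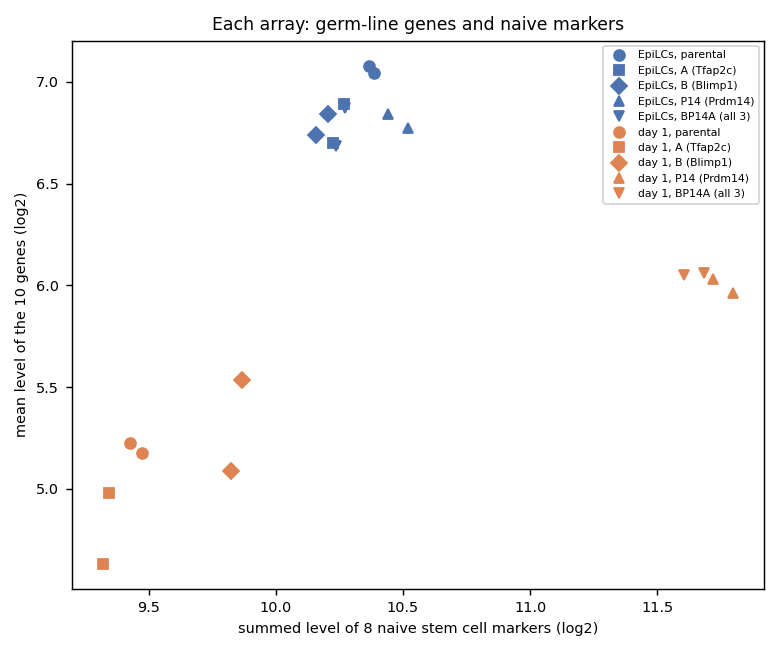
Each point is 1 array, with the log2 of the summed level of 8 naive stem cell markers on the horizontal axis and the mean log2 level of the 10 genes on the vertical axis, by stage (colour) and line (symbol). EpiLC arrays lie at 6.69 to 7.08 on the vertical axis, and the P14 and BP14A aggregates, at 5.96 to 6.06, lie above the other aggregates and to the right of all other arrays.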

How the data were processed

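Expression was measured on a mouse 3′ expression array of 45101 probe sets in 20 samples. Per the labels' protocols, total RNA was purified on columns and labelled with biotin by the array maker's one-cycle method. The authors deposited log2 values, 1 for each probe set on each array; base 2 was inferred from the range, 0 to 13.83. The sources used here name neither the normalization nor the software. No further normalization was applied.

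The 64 control probe sets were left out. By the platform annotation, 34945 probe sets had 1 gene, 932 several and 9160 none. Probe sets whose highest group mean reached 3.95, the 40th percentile of all values, were kept, and each gene was read by its brightest kept probe set, which gave 14011 tested genes. All 10 genes and all 13 of their probe sets passed. Group means were fitted to all 20 arrays in limma 3.58.1 (R 4.3.3); residual degrees of freedom were 10, with Benjamini-Hochberg adjustment over all tested genes. The code was tested on simulated data. Python 3.11.15 and pandas 2.3.3 were used for tables.

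The 10 genes, the lists and the tests were chosen with earlier results of these data known. Named genes are the 10 genes, the called list genes with the largest changes (at most 4 per list and comparison) and the 5 genes most like them; other names were chosen after their values were seen, as were the comparisons with the A line and of BP14A with P14. Summed levels are the log2 of summed unlogged values.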

Additional observations from a re-analysis of the deposited data

Results flagged for a closer look

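Groups of 2 arrays allow no test for an outlying sample. The change from EpiLCs to day 1 differed between lines by limma's interaction of line and stage, but the genes were chosen with their EpiLC level and parental fall known, so the differences are a description. In BP14A against parental cells the change was higher by 1.31 for Dazl, 1.78 for Hormad1, 1.17 for Stag3, 1.18 for Stk31 and 2.74 for Morc1 on the log2 scale. In P14 it was higher by 1.05 for Dazl, 1.90 for Hormad1 and 2.22 for Morc1.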

How the results depend on the processing

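Groups of 2 arrays limit every test, and in each setting that leaves out an array the remaining one is taken to have the spread of the other groups. Of the 27 gene results called in a comparison of lines, 0 reversed under any alternative; over 356 values, 320 kept their call and 36 lost it. With all probe sets of a gene averaged, 2 of the 10 genes and 2 pathway genes were called in BP14A against parental on day 1. Under treat against a log2 change of 0.5, 2 of the 10 genes were called in that comparison, 2 in the interaction of BP14A and 1 in that of P14, with 1 pathway gene in B and 2 in P14 on day 1. With only the arrays compared in the fit, 1 of the 10 genes (Asz1) was called in the interaction of B and 3 in P14 against A, and 1 pathway gene in B. With a filter at the 60th percentile 3 pathway genes were called in P14. Leaving out single arrays gave 0 to 1 called of the 10 genes in B against parental on day 1, 0 to 1 in BP14A against parental EpiLCs, 0 to 1 in BP14A against P14, 2 to 6 pathway genes in B, and a median change in B of -1.71 to -1.34. The 3 calls in P14 against parental on day 1 kept their number under all 12 alternatives. The labels number the replicates 1 and 2 in every group, but over 45 pairs of groups the deviations of same-numbered arrays correlated at -0.39 to 0.36 (median 0.06), so the numbers were not taken as pairs. With the replicate number as a block, 4 of the 10 genes were called in BP14A and 3 in P14 against parental on day 1, and no count of calls changed by over 1.5 times.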
